A study of Mus musculus with 6 samples.

Results

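Matrix glycoproteins, proteoglycans and elastic fiber genes were examined in mammary epithelial organoids with and without Wwox. The set was a list of 41 genes, and a gene was measured where the platform annotation gave a probe set exactly its symbol alone. This held for 38 of the 41, out of 18193 genes measured in all. Fbn1 and Efemp2 had no probe set under that rule, and both probe sets of Loxl2 (2) are shared with another symbol. Where a gene had several probe sets, the brightest one, by its mean value across all arrays, stood for the gene. Organoids are the fragments of ducts and alveoli that remain after the gland is digested. They came from 6 mice of 8 weeks on a mixed background (129/J; C57BL/6), 3 per group, with 1 Affymetrix array per mouse. All mice carried 2 floxed Wwox alleles (WWOX flox/flox). The WT group lacked Cre (BK5-cre -; arrays WT1, WT2 and WT3), and the KO group carried it (BK5-cre +; arrays KO5, KO6 and KO7). Cre was driven by the bovine keratin 5 promoter, which acts in epithelial precursors, and no array came from a mouse with Cre and intact Wwox, so loss of Wwox and the presence of Cre cannot be told apart.

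The extracellular matrix of the mammary gland has a basement membrane next to the epithelium and a looser stroma around the ducts. Fibroblasts make most of the stromal components, among them the small leucine-rich proteoglycans that bind collagen fibrils and the elastin, fibrillin and fibulin proteins of elastic fibers. Latent TGF-β binding proteins tether the inactive growth factor to this network, lysyl oxidases cross-link collagen and elastin, and hyaluronan synthases make the large glycosaminoglycan that binds versican.

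The deposited values are on a log2 scale, so a difference of 1 is 2-fold. On its brightest probe set Wwox had a level of 7.71 ± 0.07 (SD, n = 3) in WT, and KO was at 6.02 ± 0.19 (SD, n = 3; adjusted p = 0.0228 by limma). The epithelial label was borne out by bright keratin genes, among them Krt8, whose WT level was 14.52 ± 0.10 (SD, n = 3) and whose KO level was 14.64 ± 0.06 (SD, n = 3). RNA quality was unequal. The excess of the 3' over the 5' probe set of Gapdh, which grows as transcripts are cut short, ranged from 0.95 to 2.41 in WT and from 0.40 to 0.56 in KO, and that of β-actin from 0.98 to 1.85 and from 0.63 to 0.71. For Tfrc it was also larger in WT, from 1.95 to 2.09 against 1.60 to 1.81, while for Pcx the mean was larger in KO, at 2.83 ± 0.38 (SD, n = 3) against 2.22 ± 0.67 (SD, n = 3), and the groups overlapped. Stromal markers were clearly present. Fibroblast markers averaged 9.87 to 9.97 on the WT arrays and 10.72, 10.70 and 9.87 on KO5, KO6 and KO7. In bulk samples such as these, more cells of a type and more RNA per cell cannot be told apart.

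Of the 38 genes, 4 rose and 1 fell in KO organoids. Those that rose were Fbln2, a fibulin of elastic fibers and basement membranes, Has1, a hyaluronan synthase, Ltbp4, a latent TGF-β binding protein needed for elastic fiber assembly, and Tnxb, the matrix glycoprotein tenascin-X. The one that fell was Ltbp2, another member of the latent TGF-β binding protein family. A call needed a nominal (unadjusted) p below 0.01 in limma together with a difference of 2-fold or more, limits that follow the study. Over all genes measured, 0.517% were called higher and 0.462% lower. Most of the other members moved less than this but lay above WT. In 33 of 38 the KO mean was higher, against 38.8% of all genes, and the median log2 change was 0.36, against -0.06 over all genes. With 1 array left out at a time, from 27 to 36 of the 38 means were higher in KO, fewest without WT1, and the median lay between 0.24, without KO5, and 0.59, without KO7. At a nominal p below 0.05 in limma, 11 members were higher (6.17% of all genes) and 1 was lower (13.0%). The groups did not overlap for 12 members. Every KO array lay above every WT array for 10 of them (7.20% of all genes), and the reverse held for 2, Ltbp2 and Postn (16.1% of all genes). With all probe sets of a gene counted, 7 members had a called rise (2.95% of all genes) and 1 a called fall (0.550%).

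**Figure D1:**
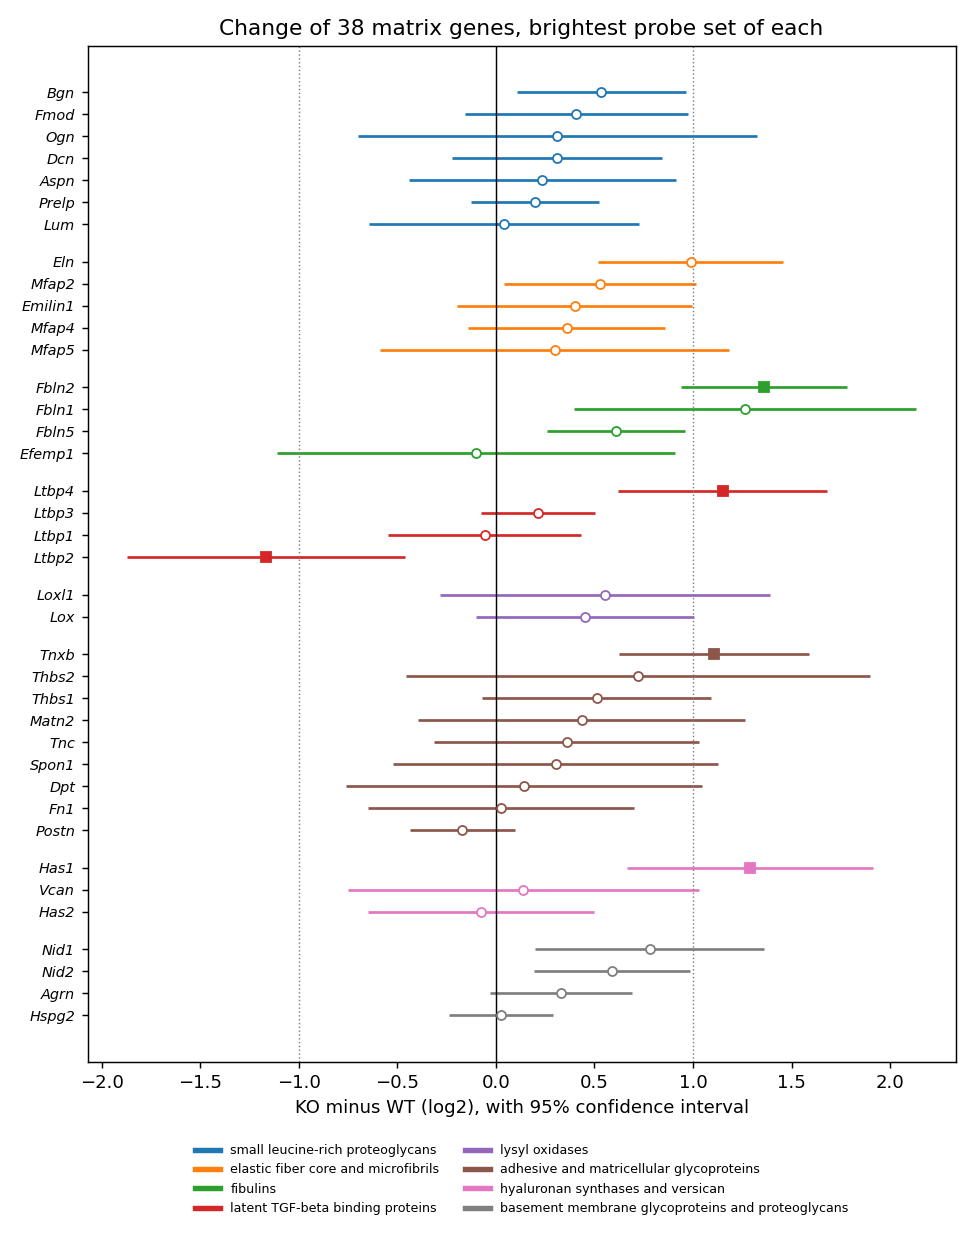
KO minus WT on the log2 scale for the 38 measured genes, by role (colour), on the brightest probe set of each. Points are limma estimates from 3 mice per group and bars their 95% confidence intervals; filled squares mark the 5 called genes, open circles the others, and dotted lines a 2-fold change. The largest rise was that of Fbln2, at 1.36, and the largest fall that of Ltbp2, at -1.17.

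The largest rise among the members was that of a fibulin. Fbln2 was at 9.42, 8.85 and 9.18 on WT1, WT2 and WT3 and at 10.42, 10.75 and 10.35 on KO5, KO6 and KO7. All KO arrays were higher than all WT arrays, with a gap between the groups wider than the range within either. Its log2 change was 1.36 (standard error 0.18, adjusted p = 0.0492 by limma over all probe sets), or 2.57-fold, and it was the one member whose brightest probe set had an adjusted p under 0.05. Over all genes 0.137% reached that level. Over the alternatives this adjusted p ranged from 0.00778 to 0.952. Fbln1, which binds fibronectin and basement membrane proteins, was at 7.57, 6.09 and 6.86 in WT and 8.13, 8.49 and 7.69 in KO. The groups were apart, but WT1 lay close to KO7, and with a log2 change of 1.26 and an unadjusted p = 0.0105 in limma the gene just missed a call. That change was 0.03 with a covariate for the 3' excess of Gapdh and β-actin, described with the other RNA quality values. Fbln1 was called with ribosomal protein centring, with a trend and robust prior, with array weights and without WT1. Its other probe sets differed by 0.61 and -0.06, and the groups overlapped for both. Fbln5, which organises elastin on microfibrils, was 9.36, 9.39 and 9.14 in WT and 10.14, 9.91 and 9.66 in KO, a difference of 0.61 (standard error 0.15, adjusted p = 0.0983 by limma) that was under 2-fold. Efemp1 (fibulin-3) differed by -0.10, with a 95% confidence interval from -1.11 to 0.91, and its values ran from 8.96 to 10.41 in WT and from 8.97 to 10.11 in KO.

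Within the latent TGF-β binding proteins the members went different ways. Ltbp4 was at 7.06, 6.61 and 6.34 in WT and at 8.07, 7.92 and 7.46 in KO. No WT array reached the KO range, and the log2 change was 1.15 (standard error 0.23, adjusted p = 0.0683 in limma), or 2.22-fold. Ltbp2, which binds microfibrils but not latent TGF-β, was at 9.74, 9.43 and 8.61 in WT and at 8.06, 8.43 and 7.77 in KO. WT3 lay only just above KO6, and the log2 change was -1.17 (standard error 0.30, adjusted p = 0.105 by limma). The fall of Ltbp2 was not called without WT1, at -0.93, without WT2, at -1.08, without KO5, at -1.15, or without KO7, at -1.01, and Ltbp4 was not called without WT3, at 0.99. For Ltbp3 and Ltbp1 the differences were 0.21 (95% confidence interval from -0.08 to 0.50) and -0.06 (from -0.55 to 0.43) on the brightest probe sets, and the groups overlapped for both. A further Ltbp3 probe set, 1418049_at, was at 10.87, 10.05 and 10.12 in WT and 11.11, 10.95 and 11.24 in KO. Every KO array lay above every WT array there, and the difference was 0.75 (adjusted p = 0.137 by limma). The remaining Ltbp3 sets differed by 0.32 and 0.46. The 95% confidence intervals of Ltbp4 (from 0.62 to 1.68) and Ltbp2 (from -1.87 to -0.46) lay on opposite sides of 0, and the difference between the genes was not tested.

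Has1 was at 8.75, 8.68 and 9.25 on the WT arrays and 10.26, 10.63 and 9.65 on the KO arrays. KO7 was the lowest KO array and still lay above WT3, the highest WT array, and the log2 change was 1.29 (standard error 0.27, adjusted p = 0.0741 in limma), or 2.44-fold. Has2, a second hyaluronan synthase, was dim, at 4.99 to 5.55 in WT and 4.82 to 5.69 in KO, and differed by -0.08 (95% confidence interval from -0.65 to 0.50). Versican (Vcan), a proteoglycan that binds hyaluronan, differed by 0.14 on its brightest probe set, where WT1, at 6.91, was the lowest of all arrays and WT3, at 8.41, the highest. Of its other 7 probe sets, 2 differed by 0.71 (adjusted p = 0.205 by limma) and 0.64 (adjusted p = 0.211), and the remaining ones by -0.07 to 0.12.

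Among the adhesive and matricellular glycoproteins 1 of 9 rose. Tnxb, which binds collagen fibrils, was at 7.55, 7.36 and 7.41 in WT and 8.67, 8.89 and 8.08 in KO. The WT arrays lay within a narrow range that no KO array entered, and the log2 change was 1.11 (standard error 0.21, adjusted p = 0.0655 in limma), or 2.15-fold. Without KO6 it was at 0.94 and not called. Thrombospondin-1 (Thbs1), an activator of latent TGF-β, differed by 0.51 on its brightest probe set (adjusted p = 0.314 by limma), where WT1, at 12.16, lay above KO6, at 11.93. Thbs2, a related thrombospondin, differed by 0.72 but spread widely, from 7.40 to 8.76 in WT and from 7.67 to 9.39 in KO. Periostin (Postn), a matricellular protein of collagen-rich stroma, was 12.30 to 12.53 in WT and 12.13 to 12.29 in KO, groups that were apart by a small difference of -0.17 (adjusted p = 0.467 by limma). Fibronectin (Fn1), the main cell-binding glycoprotein of the stroma, differed by 0.03 (95% confidence interval from -0.65 to 0.70). Matn2 (matrilin-2, a filament-forming adaptor), Tnc (tenascin-C, an anti-adhesive glycoprotein), Spon1 (spondin-1) and Dpt (dermatopontin, which binds decorin) differed by 0.44, 0.36, 0.30 and 0.14, and the groups overlapped for each. Dpt was at 10.81 to 11.37 in WT and 10.36 to 11.92 in KO, where KO7 was the lowest of all 6 arrays and KO6 the highest.

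Basement membrane genes were higher in KO on the mean of each of 4 members, and none of these probe sets was called (limma, 2 higher and 0 lower at a nominal p below 0.05). Nidogen-1 (Nid1), which links laminin to type IV collagen, was at 10.24, 10.38 and 10.42 in WT and 11.43, 11.44 and 10.52 in KO, a difference of 0.78 (adjusted p = 0.154 by limma), with KO7 close to the WT arrays. Another Nid1 probe set, 1448469_at, was at 7.07, 6.83 and 6.91 in WT and 8.82, 8.78 and 8.41 in KO. All 3 KO arrays stood well above the WT range there, and the difference of 1.73, with a standard error of 0.15 and an adjusted p of 0.0272 in limma, or 3.32-fold, was the largest of any member probe set. Nid2, the related nidogen, differed by 0.59 (adjusted p = 0.128 by limma), from 5.98 to 6.28 in WT and from 6.38 to 6.93 in KO. Agrin (Agrn), a heparan sulfate proteoglycan, differed by 0.33 (adjusted p = 0.296 by limma). Perlecan (Hspg2), another one, differed by 0.03 on its brightest probe set and by 0.72 on the other (adjusted p = 0.143 by limma).

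Elastin (Eln), the elastic core protein, was at 8.14, 7.94 and 7.56 in WT and 9.15, 8.89 and 8.57 in KO. The groups were apart, and the difference of 0.99, with a standard error of 0.20 and an adjusted p of 0.0707 in limma, or 1.98-fold, fell just short of the fold limit. Cyclic loess normalization and ribosomal protein centring placed Eln past the limit, at 1.04 and 1.02. The microfibril genes Mfap2, Mfap4 and Mfap5 and Emilin1, an elastin-associated glycoprotein, differed by 0.53, 0.36, 0.30 and 0.40, and the groups overlapped for each. Mfap5 spread most, from 8.93 to 9.65 in WT and from 8.81 to 10.36 in KO. Lysyl oxidase genes differed by 0.45 (Lox) and 0.56 (Loxl1) with overlap of the groups. Loxl1, which acts on elastin, was at 9.39 and 9.19 on KO5 and KO6, above all WT arrays, and at 7.99 on KO7, below them. Lox had another probe set, 1448228_at, with 6.23, 5.85 and 6.52 in WT and 7.84, 7.59 and 6.73 in KO, and a called change of 1.19 (adjusted p = 0.103 by limma). That call was lost without WT1, although the change itself was no smaller, and also without WT2, at 1.01, KO5, at 0.96, or KO6, at 1.09.

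None of the 7 small leucine-rich proteoglycans was called (limma, 1 higher and 0 lower at a nominal p below 0.05), although the KO mean was the higher one for each. Biglycan (Bgn) was 11.45, 11.63 and 11.16 in WT and 11.94, 12.23 and 11.67 in KO, a difference of 0.53 (adjusted p = 0.177 by limma) with KO7 just above WT2. Decorin (Dcn), the abundant collagen-binding proteoglycan of stroma, differed by 0.31 (95% confidence interval from -0.22 to 0.84), and lumican (Lum) by 0.04 (from -0.64 to 0.72). Dcn was at 12.62, 12.54 and 12.94 in WT and 13.10, 13.40 and 12.54 in KO, so that KO5 and KO6 lay above every WT array and KO7 level with the lowest. Fmod, Ogn, Aspn and Prelp differed by 0.41, 0.31, 0.24 and 0.20. The other probe sets of Ogn, Aspn and Prelp differed by 0.81 (adjusted p = 0.291 by limma), 0.37 and -0.06, and the groups overlapped for each. The brightest of the 6 probe sets of fibromodulin (Fmod) has the suffix that Affymetrix gives to sets whose probes may match other transcripts. The one without a suffix of that kind, 1415939_at, was at 7.82, 6.61 and 6.44 in WT and 8.55, 8.37 and 7.76 in KO, with WT1 just above KO7 and a difference of 1.27 (unadjusted p = 0.0111 in limma).

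**Figure D2:**
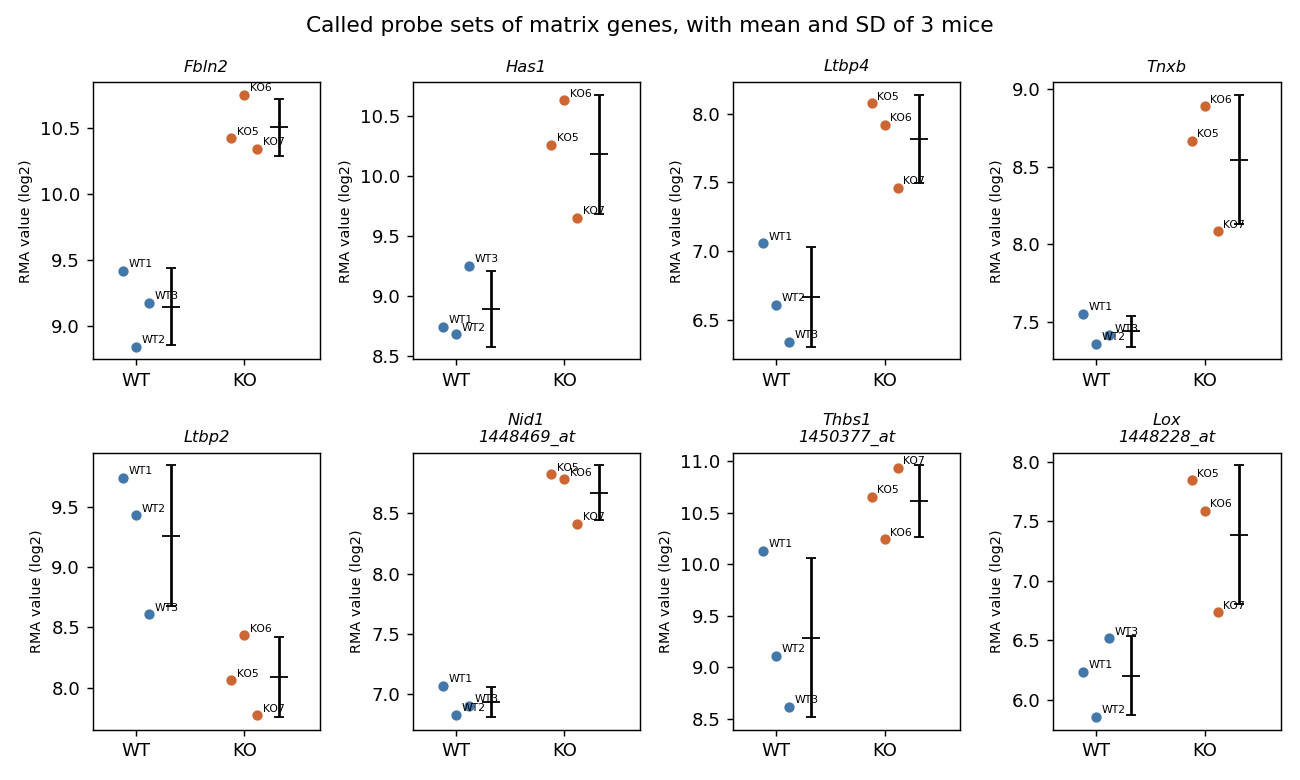
Deposited log2 values of the 8 called probe sets, 5 that are the brightest of their gene and 3 that are not (named by probe set). Each point is a mouse, and bars show group means with their SD (n = 3); each panel has its own axis, which does not start at 0. Every panel shows the groups apart, and KO7 is the lowest KO array in 7 of 8 panels.

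Promoter sequences are shown for the members with a call on any probe set, to let their upstream regions be compared. A promoter window of RefSeq (GRCm38.p6) was matched for 27 of the 41 listed genes and for 6 of the 8 called ones. Each line gives the 250 bases before the annotated start, read toward the gene, and for Ltbp4 the first listed of its 3 windows. Capitals mark matches on either strand to 5 motifs. The AP-1 element was searched as TGANTCA. The GC box was searched as GGGCGG. The TATA box was searched as TATAAA. The TEAD element was searched as GGAATG. The Smad element was searched as CAGAC. No 2 matches overlap in these windows.
Fbln2 (chr6:91212514-91212763, plus strand): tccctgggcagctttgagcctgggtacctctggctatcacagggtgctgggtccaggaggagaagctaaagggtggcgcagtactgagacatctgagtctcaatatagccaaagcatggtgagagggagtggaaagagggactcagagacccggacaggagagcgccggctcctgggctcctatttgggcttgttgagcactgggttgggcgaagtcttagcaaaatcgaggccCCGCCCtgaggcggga
Has1 (chr17:17855189-17855438, minus strand): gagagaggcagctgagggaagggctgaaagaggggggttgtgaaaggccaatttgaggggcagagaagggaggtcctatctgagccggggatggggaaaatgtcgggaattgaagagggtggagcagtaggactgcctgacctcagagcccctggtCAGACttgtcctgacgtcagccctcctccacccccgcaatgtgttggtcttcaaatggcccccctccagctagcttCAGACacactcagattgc
Ltbp4 (chr7:27337613-27337862, minus strand): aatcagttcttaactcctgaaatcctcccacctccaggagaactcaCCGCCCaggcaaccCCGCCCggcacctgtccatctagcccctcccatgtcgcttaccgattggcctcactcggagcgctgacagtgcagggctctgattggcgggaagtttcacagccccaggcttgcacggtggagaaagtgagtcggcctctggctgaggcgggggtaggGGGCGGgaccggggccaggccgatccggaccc
Tnxb (chr17:34670285-34670534, plus strand): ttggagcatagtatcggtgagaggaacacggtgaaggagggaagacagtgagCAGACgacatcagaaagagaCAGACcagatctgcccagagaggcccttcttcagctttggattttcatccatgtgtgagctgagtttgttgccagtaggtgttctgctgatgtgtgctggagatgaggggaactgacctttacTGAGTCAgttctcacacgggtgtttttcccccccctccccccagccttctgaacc
Nid1 (chr13:13437352-13437601, plus strand): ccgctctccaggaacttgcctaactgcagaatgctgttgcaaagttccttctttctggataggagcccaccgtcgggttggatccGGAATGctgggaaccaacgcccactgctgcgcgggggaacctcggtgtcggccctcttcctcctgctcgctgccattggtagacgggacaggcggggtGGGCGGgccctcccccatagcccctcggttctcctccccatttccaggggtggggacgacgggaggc
Ltbp2 (chr12:84876492-84876741, minus strand): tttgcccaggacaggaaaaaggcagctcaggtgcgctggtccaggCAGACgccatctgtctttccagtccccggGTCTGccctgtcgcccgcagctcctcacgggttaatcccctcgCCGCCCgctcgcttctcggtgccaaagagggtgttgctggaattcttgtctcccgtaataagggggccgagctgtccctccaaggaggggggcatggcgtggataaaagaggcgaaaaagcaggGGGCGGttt
These windows share no 1 motif. A Smad element was matched in Has1, Tnxb and Ltbp2, and a GC box in Fbln2, Ltbp4, Nid1 and Ltbp2. Ltbp2, the gene that fell, thus held 2 of the 4 kinds found among those that rose. Tnxb alone of the 6 held the AP-1 element, from 55 to 49 bases before the start, and Nid1 alone the TEAD element, from 165 to 160 bases before it. Of the 27 genes with a window, 15 held a Smad element, 15 a GC box, 5 a TATA box, 3 a TEAD element and 2 an AP-1 element. The shares over all 32851 windows were 42.2%, 32.7%, 12.4%, 12.6% and 6.75%. Those shares are per window, whereas a gene was counted when any of its windows held the motif. The counts and the shares are therefore not on the same footing.

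The KO arrays were not alike for these genes. KO7 was the lowest KO array for 35 of 38 members, against 28.6% of all genes, KO6 for 3 (34.8% of all genes) and KO5 for 0 (36.6%). Median deviations from each gene's own mean were 0.47 on KO5 and 0.35 on KO6 but -0.22 on KO7, below WT2, at -0.08, and WT3, at -0.11, and above WT1, at -0.32. WT1 was the lowest WT array for 18 of 38 members, a share close to that over all genes (7638 of 18193). In all 18 of them KO7 was also the lowest KO array, and both held for 12.4% of all genes. The excess over all genes thus lay mainly with KO7. Members low on both WT1 and KO7 were nonetheless found. Such genes included Ogn, with 9.41 on WT1 and 9.49 on KO7 while the other arrays lay between 10.15 and 10.95, and Efemp1, with 8.96 and 8.97 against 10.04 to 10.41. Without KO7, 20 members were higher at that nominal p in limma, in place of 11, and Nid1 and Eln were called on their brightest probe sets. Without KO5 there were 8, with 29 of 38 means higher. Of 80 further matrix genes, described below, 19 were higher at that p without KO7 and 8 without KO5, against 10 with all arrays. The share of all genes at that p was not computed with an array left out. Over all genes the median change was -0.07 without KO7, where 89 genes were called higher and 85 lower. It was -0.05 without KO5, where 71 were called higher and 88 lower. By their median, fibroblast markers were also high on KO5 and KO6 and low on KO7. The low KO7 values were not shared by all. For 5 of the 16 markers every KO array lay above every WT array, against 7.20% of all genes. Of 16 measured, 3 were called higher (Col1a1, Clec3b and Pi16) and 0 lower, the median change was 0.43, and their median deviations were 0.49, 0.50 and -0.33 on KO5, KO6 and KO7 and -0.32, -0.33 and -0.22 on WT1, WT2 and WT3. Gsn, Col3a1 and Col1a2 were the brightest of them. WT and KO levels were 13.72 ± 0.19 and 13.70 ± 0.42 for Gsn, 13.33 ± 0.07 and 13.89 ± 0.19 for Col3a1, and 12.82 ± 0.04 and 13.65 ± 0.17 for Col1a2 (SD, n = 3 each). Nerve and Schwann markers (4 measured, 0 called by limma, 0 higher and 0 lower at a nominal p below 0.05) had median deviations of -0.39, -0.04 and 0.04 on WT1, WT2 and WT3 and 0.42, 0.35 and -0.58 on KO5, KO6 and KO7. Endothelial markers were also higher, with a mean level of 9.21 to 9.64 on the WT arrays and 9.76 to 10.26 on the KO arrays, while those of pericytes (8.60 to 8.91 and 8.69 to 9.08) and of myoepithelium (9.47 to 9.82 and 9.53 to 9.80) overlapped. Of 12 endothelial markers 2 were called higher and 0 lower, and the median change was 0.65. For macrophage (10 measured, 1 called lower) and lymphocyte markers (7 measured, 0 called) 0 means were higher in KO. Their median changes were -0.32 and -0.48, and their mean levels overlapped between the groups. Luminal epithelial markers (10 measured, 0 called by limma) had median deviations of 0.06, -0.24 and -0.05 on WT1, WT2 and WT3. On KO5, KO6 and KO7 these were 0.03, 0.10 and 0.23, highest on KO7. The part of cell composition in these changes was not tested.

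**Figure D3:**
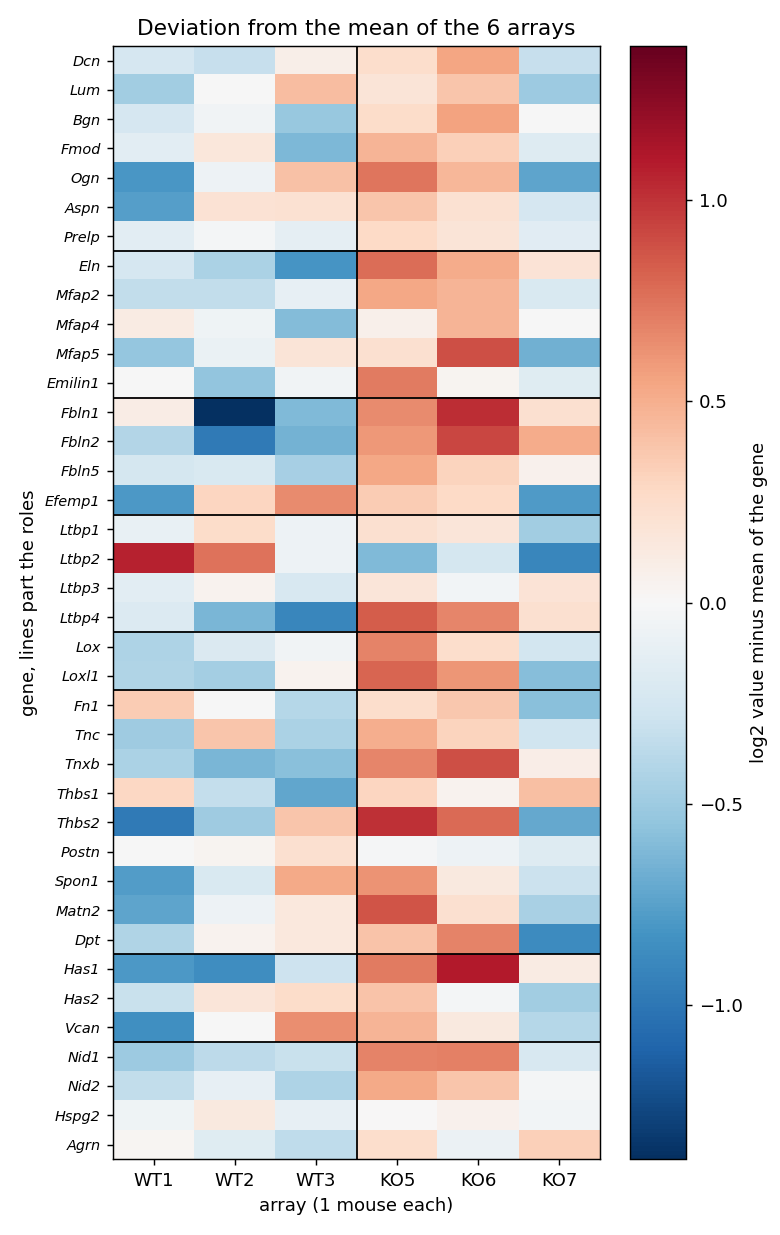
Log2 value minus the mean of the gene over the 6 arrays, for 38 genes in rows and arrays in columns, with lines between the roles and between WT and KO. Red is above and blue below the mean of the gene, and KO5 and KO6 are mostly red while KO7 is mostly pale or blue, with a median of -0.22.

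Probe sets of the same gene did not always move together. Of the 38 members 28 had over 1 probe set, and in 19 of these all had the higher mean in KO. Of 48 probe sets other than the brightest, 36 had the higher mean in KO, 3 were called higher (those of Nid1, Thbs1 and Lox) and 0 lower, and 18 were dim, with a mean under 5. For Fbln2 the second probe set was dim, with a WT level of 3.28 ± 0.08 (SD, n = 3) and a KO level of 3.10 ± 0.21 (SD, n = 3), and with the mean of both sets taken the gene differed by 0.59 and was not called. The Thbs1 set 1450377_at was at 10.13, 9.11 and 8.62 in WT and 10.66, 10.25 and 10.94 in KO, so that WT1 was near KO6. Its change of 1.33 (adjusted p = 0.123 by limma) was not called without WT2, at 1.24, WT3, at 0.99, KO5, at 1.30, KO6, at 1.51, or KO7, at 1.16. Where these probe sets lie along the transcripts is not known here.

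**Figure D4:**
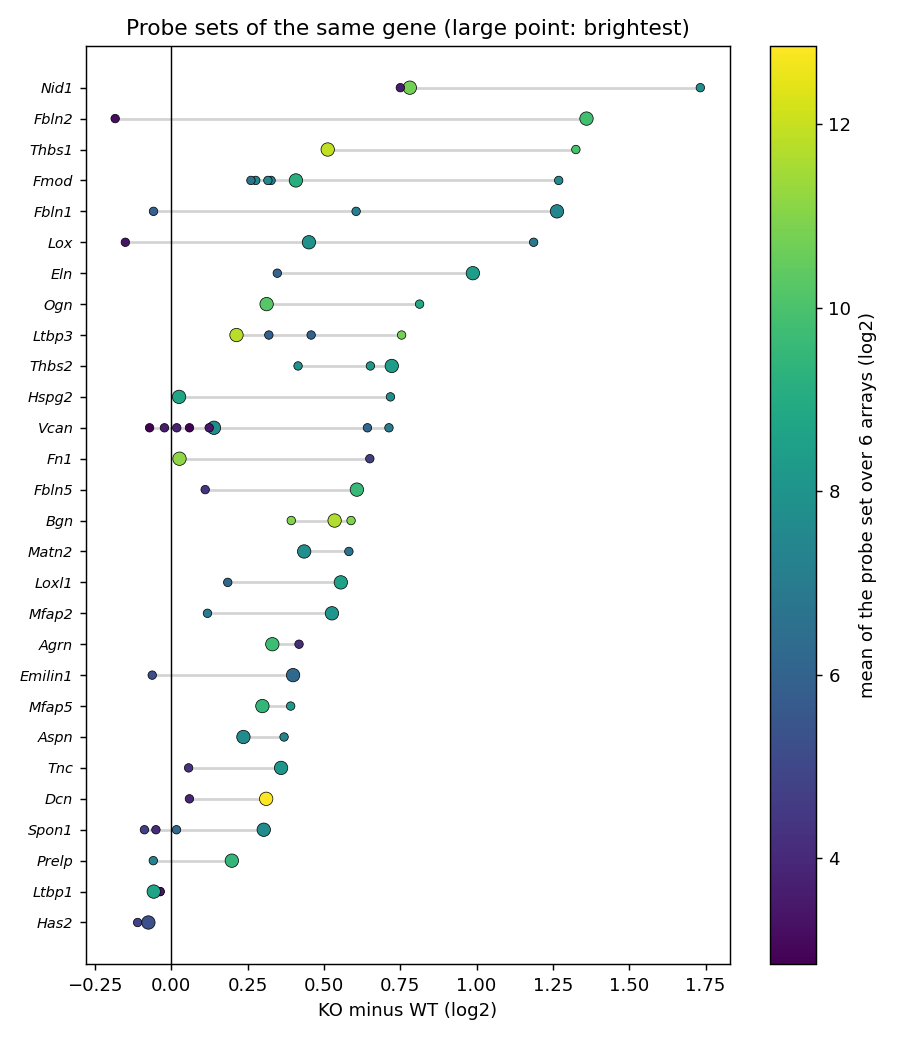
KO minus WT on the log2 scale for each probe set of the 28 genes with over 1, 1 gene per row; the large point is the brightest probe set and colour gives the mean log2 value over 6 arrays. Rows spread widely for Nid1, whose probe sets run from 0.75 to 1.73, and for Fbln2, whose dim set lies at -0.18.

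When the 3' excess of β-actin and Gapdh, averaged for each array, entered the fit, 0 members were called (limma, 4 higher and 1 lower at a nominal p below 0.05). The changes were then 0.90 for Fbln2, 1.41 for Has1, 0.65 for Ltbp4, 0.96 for Tnxb and -1.65 for Ltbp2. Fbln1 was at 0.03 and the Thbs1 set 1450377_at at 0.17, while the Nid1 set 1448469_at was at 1.52 and still called. The median change over the members was then 0.65, and 33 of 38 were still higher in KO. With the mean of all 4 control transcripts that median was 0.73, and 17 members were higher at a nominal p below 0.05 in limma and 1 lower. The share of all genes at that p was not computed with a covariate. Of the 80 further matrix genes, 9 were higher and 1 lower with all 4 control transcripts. The counts were 3 and 3 with β-actin and Gapdh, and 10 and 5 with no covariate. With all 4 control transcripts Fbln2 (1.16), Has1 (1.60), Tnxb (1.13), Ltbp2 (-1.59), Spon1 (1.09) and Vcan (1.07) were called, and Ltbp4 (0.89) was not. Over all genes the median change was -0.03 with β-actin and Gapdh, where 35 genes were called higher and 100 lower. With all 4 control transcripts it was -0.04, where 78 genes were called higher and 183 lower. The 3' excess of Gapdh and that of β-actin did not overlap between the groups, so RNA quality and genotype cannot be fully told apart on these arrays.

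**Figure D5:**
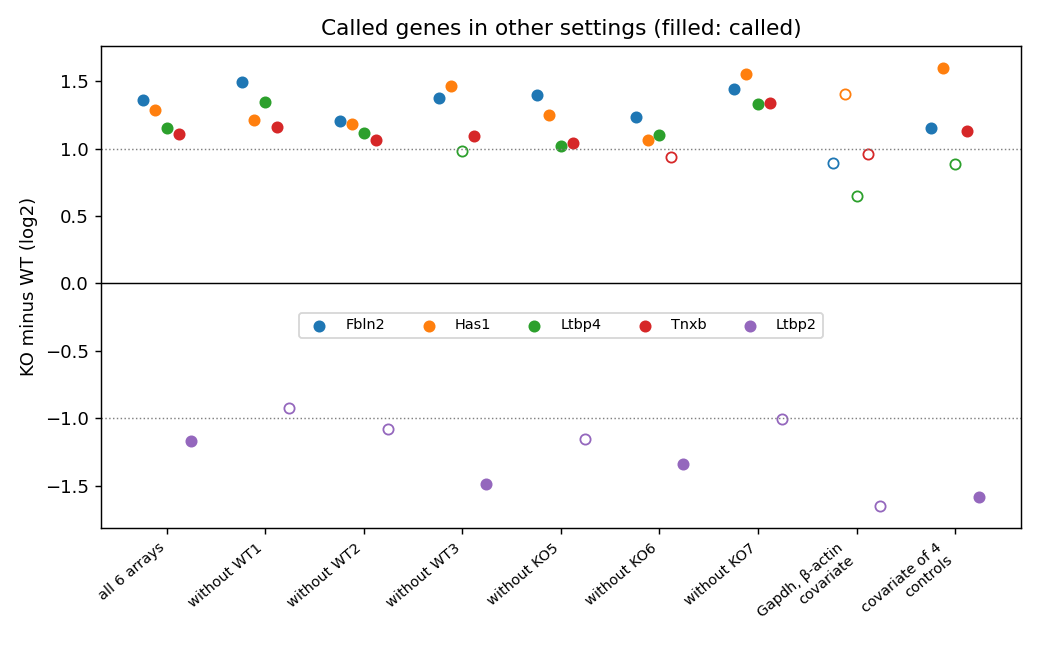
KO minus WT on the log2 scale for the 5 called genes with all arrays, with each array left out, and with RNA quality covariates; filled points are called, open points are not, and dotted lines mark a 2-fold change. Fbln2 and Has1 stay called whichever array is left out, and none of them with the covariate made from β-actin and Gapdh.

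Other genes of the matrix were taken from 3 further lists. Of 45 further matrix glycoprotein and proteoglycan genes limma called 0 (8 higher and 0 lower at a nominal p below 0.05), and they had a median log2 change of 0.11. Over all genes, 6.17% were higher and 13.0% lower at that p, and the median was -0.06. Of the 80 genes in the 3 lists, 53 had a mean log2 value of at least 6, against 37 of the 38 members, and the lists were not tested against each other. Among the 45 genes, the largest differences were those of the thrombospondin genes Thbs4 (0.91, adjusted p = 0.138 by limma) and Thbs3 (0.79, adjusted p = 0.138) and of Ecm1 (0.77, adjusted p = 0.107). Among 21 glycosaminoglycan synthesis enzymes limma called 0 as well, and the median was 0.03. At a nominal p below 0.05 in limma 0 were higher and 3 lower, near the share of all genes lower (13.0%). The 3 were B4galt7, which adds the first galactose of the linker that joins these chains to proteins, at -0.61 (adjusted p = 0.0957), and the heparan sulfate sulfotransferases Hs6st1, at -0.59, and Hs2st1, at -0.42. The largest change among these enzymes was a rise, that of Ugdh, at 0.81 (adjusted p = 0.288 by limma), with overlap of the groups. Of 14 cell surface proteoglycans and hyaluronan receptors limma again called 0 (2 higher and 2 lower at a nominal p below 0.05). The glypican genes Gpc3 and Gpc1 differed by 0.74 and 0.65, and Cd44, the main hyaluronan receptor, by -0.69 (adjusted p = 0.189 by limma).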

How the data were processed

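Total RNA from organoids of 3 WT and 3 KO mice was hybridised to Affymetrix mouse genome arrays. The authors deposited log2 values from RMA, a background correction, quantile normalization and summary per probe set, whose version is not given in the sources used here. They checked quality with simpleaffy and ran limma. No further normalization was applied to the 45101 probe sets deposited. Tests left out 64 Affymetrix controls. Among the 45037 others, 34945 have a single symbol, 932 have several and 9160 have none in the platform annotation.

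The test of KO minus WT was limma's moderated test (version 3.58.1, R 4.3.3; lmFit, eBayes) on 6 arrays with no covariate. Adjusted p-values follow Benjamini-Hochberg across every probe set in the fit. Calls needed p below 0.01 before adjustment and 2-fold or more. This step was tested on simulated data. A planted change was called there with the wrong sign, and the criterion for passing was relaxed after that. Every member was named. From the other matrix lists, called genes and up to 3 more per list, those with the largest change at p below 0.05, were named. Ugdh was named as well, for the largest change of its list. Members, lists and alternatives were chosen with earlier results of these data known. The marker lists had median changes of 0.43 (fibroblast), 0.19 (luminal epithelium), 0.02 (myoepithelium), 0.65 (endothelium), 0.20 (pericyte), -0.32 (macrophage), -0.48 (lymphocyte), -0.02 (adipocyte), 0.03 (nerve and Schwann) and 0.05 (skeletal muscle). Promoter windows came from RefSeq. Figures were drawn in matplotlib 3.10.9. The number of arrays limits the precision.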

Additional observations from a re-analysis of the deposited data

How the results depend on the processing

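With 4 members called higher, the count lay between 4 and 6 under quantile and cyclic loess normalization, ribosomal protein centring, a limit on low values, array weights, a trend and robust prior, the covariate of 4 control transcripts, the mean of all probe sets and an adjusted p below 0.1. It was 1 with unmoderated variances, 0 when the covariate came from β-actin and Gapdh, 9 at p below 0.05 and 1.5-fold, and 7 with any probe set counted. The count called lower, 1, became 0 with unmoderated variances, with that covariate or at an adjusted p below 0.1. Leaving out 1 array at a time gave 3 to 6 called higher, 0 to 1 called lower and, in the other matrix lists, 0 to 3 called, the 3 (Thbs3, Thbs4 and Ugdh) without KO7. In those lists, with 0 called otherwise, 2 genes passed an adjusted p below 0.1, 8 passed p below 0.05 and 1.5-fold, and 2 were called on any probe set. No called member changed sign in any alternative.

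Replicate numbers do not pair these samples: deviations from the group means correlated at -0.16, 0.16 and 0.10 for equal numbers, and not every array correlated best with its own number. With the number as a block 4 members were called higher and 1 lower, and the Lox set 1448228_at (1.19) and the Thbs1 set 1450377_at (1.33) were not called.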
